A study of Mus musculus with 2 samples.

Results

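The chemokine genes described here are 10 ligands: Cxcl10, Ccl2, Ccl7, Ccl3, Ccl4, Ccl5, Cxcl1, Cxcl12, Cxcl16 and Cx3cl1. They were selected on their differences between these arrays, seen earlier, and found by their gene names among the non-control probes of 1-colour Agilent expression arrays, which gave 15 probes of 56603 and 10 genes of 37324. Brain RNA of GPHR F/F;Nes was compared with brain RNA of control GPHR F/F littermates, both C57BL/6J at postnatal day 10, with 1 array each. GPHR is the Golgi pH regulator, an anion channel of the Golgi membrane encoded by Gpr89, and the question was what its loss in the brain does to gene expression. Both genotypes carry the GPHR F/F alleles, and the labels do not spell out Nes, so the cells that carry the deletion are not known here. The labels also give neither the sex of the mice nor the number of animals behind each RNA.

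Chemokines are small proteins that attract leukocytes through receptors coupled to G proteins. Most are secreted, whereas Cxcl16 and Cx3cl1 are made as membrane proteins that proteases can shed. Some, such as Cxcl10 and Ccl2, are kept low in resting tissue and are induced by interferons, by cytokines that act through NF-kappa-B, or by injury. Others, such as Cxcl12, guide cells in normal development, and Cx3cl1 is made by healthy neurons and read by microglia through Cx3cr1.

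The bases just before the start of 3 of the genes are given because they differ in the elements through which interferon and NF-kappa-B signals are known to act. RefSeq promoter sequences (GRCm38.p6) were found for 5 of the 10 genes, Cxcl10, Ccl3, Cxcl1, Cxcl12 and Cx3cl1. Each line holds the 250 bases before the annotated start, 5′ to 3′ on the strand of the gene, in lower case with capitals for 2 elements on either strand, the ISRE-type element (GAAA and GAAA with any 2 bases between them) and the kappa-B element (GGGA and TTCC with any 2 bases between them).
Cxcl10, chr5:92348890-92349139, minus strand: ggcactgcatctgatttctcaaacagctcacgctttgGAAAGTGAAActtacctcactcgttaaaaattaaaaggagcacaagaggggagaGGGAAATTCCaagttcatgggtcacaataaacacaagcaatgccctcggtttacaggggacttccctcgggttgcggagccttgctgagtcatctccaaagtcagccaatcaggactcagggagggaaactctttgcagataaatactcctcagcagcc
Cxcl1, chr5:90890995-90891244, plus strand: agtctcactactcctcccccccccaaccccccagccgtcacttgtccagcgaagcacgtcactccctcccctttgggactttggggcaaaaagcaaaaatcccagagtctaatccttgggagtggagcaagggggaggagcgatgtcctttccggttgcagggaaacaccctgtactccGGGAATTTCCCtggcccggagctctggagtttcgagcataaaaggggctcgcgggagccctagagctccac
Cx3cl1, chr8:94771930-94772179, plus strand: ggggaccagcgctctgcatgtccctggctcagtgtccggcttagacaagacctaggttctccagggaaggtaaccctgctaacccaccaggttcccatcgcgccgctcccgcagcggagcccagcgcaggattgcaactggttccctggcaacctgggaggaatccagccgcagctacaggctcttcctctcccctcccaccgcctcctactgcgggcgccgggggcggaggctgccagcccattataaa

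The Cxcl10 window held 1 match to the ISRE-type letters, 213 to 204 bases before the start, and 1 to these kappa-B letters, 159 to 150 bases before it. It also held 1 AP-1 element (TGANTCA), 74 to 68 bases before the start. The Cxcl1 window held the kappa-B letters in 2 overlapping matches, from 71 to 61 bases before the start. The Cx3cl1 window held neither element but had 1 GC box (GGGCGG), 27 to 22 bases before the start. It also had 1 match to the TATA letters (TATAAA), only 6 to 1 bases before the start. The Cxcl12 window had 5 matches to the GC box and none to the other 4 motifs. No match to any of the 5 motifs was found in the Ccl3 window. Over the same 250 bases of all 32851 promoters in the table, 2.98% held the ISRE-type element, 1.21% the kappa-B element, 6.75% the AP-1 element, 32.7% the GC box and 12.4% the TATA element. A match is a description of letters, not a bound site, and looser forms of the 5 motifs were not searched.

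A difference is the log2 level in GPHR F/F;Nes less that in GPHR F/F, after each array was set to its own 75th percentile of probe signals. That percentile was 173.4 units in GPHR F/F;Nes and 259.5 units in GPHR F/F, so a probe with equal signals on both arrays has a difference of 0.58. With 1 array per genotype there is no replicate check, no test was possible, and "higher" and "lower" describe these 2 arrays. The ± values are the error that the scanner software gives, which leaves out differences between animals. Because the genes were listed with their differences on these arrays in view, their values are a description.

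Gpr89 itself gave 20.04 units in GPHR F/F;Nes and 43.3 units in GPHR F/F, a difference of -0.53 ± 0.22, from 1 probe whose place relative to the deleted exons is not known here. Xist had signal only in GPHR F/F;Nes and the Y-linked Ddx3y, Eif2s3y and Uty only in GPHR F/F, while the Y-linked Kdm5d had signal on both arrays from 1 of its 6 probes (0.39 ± 0.20). Genotype and sex therefore cannot be told apart for any chemokine.

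Signal was well above background on both arrays for 7 of the 10 genes, in GPHR F/F;Nes alone for 2 (Ccl3 and Ccl4), and on neither array for Ccl7. Of the 7, 5 were at least 2-fold higher in GPHR F/F;Nes (Cxcl10, Ccl2, Cxcl12, Ccl5 and Cxcl16), none was 2-fold lower, and Cxcl1 and Cx3cl1 differed by less. The same calls were made for 7.93% (higher) and 1.37% (lower) of the 24112 genes with signal on both arrays, and 6 of the 7 chemokine genes lay above 0, against 56.9% of all genes. Those shares give the background and no test, since the genes were picked from this comparison. The median difference of the 7 genes was 1.22, against 0.07 over all genes. The background share differed with signal. With genes split into 5 equal bins of level, 17.3% were at least 2-fold higher in the dimmest bin, which held Ccl5, Cxcl16 and Cxcl1, 10.8% in bin 2, which held Ccl2, and 5.25% in bin 3, which held Cxcl10 and Cxcl12. In unscaled signal, 7 of the 9 probes of these genes with signal on both arrays were brighter in GPHR F/F;Nes, against 17% of all 36717 such probes. Nearest to the 2-fold threshold were Cxcl16 inside it (1.07) and Cxcl1 outside it (0.82).

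**Figure D1:**
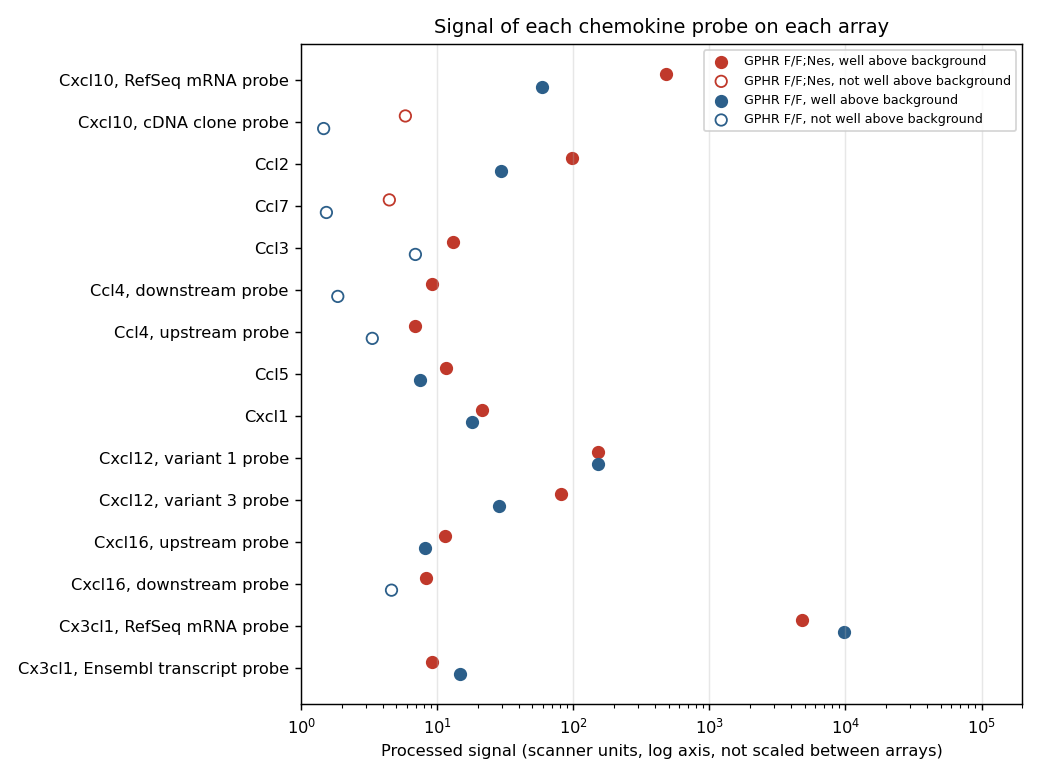
Processed signal of each of the 15 chemokine probes (scanner units, log axis, not scaled between arrays) in GPHR F/F;Nes (red) and GPHR F/F (blue), with open circles for spots not well above background. Cxcl10 stood at 477.3 units in GPHR F/F;Nes and 58.8 units in GPHR F/F, and Ccl2 at 97.7 units in GPHR F/F;Nes and 29.4 units in GPHR F/F, whereas the brightest Cx3cl1 probe was dimmer in GPHR F/F;Nes.

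Cxcl10, a chemokine induced by interferons that attracts activated T cells, had the largest difference of the 10 genes. Its RefSeq mRNA probe lies at chr5:92775781-92775840 of mm9 on the minus strand and begins with the following bases, shown because a second Cxcl10 probe reads elsewhere.
Cxcl10, RefSeq mRNA probe: gctttgcattgtatatggaagaacttgtgt
Cxcl10, cDNA clone probe: ttcctagtgtctagaagtggagcagttatt
The RefSeq mRNA probe gave 477.3 units in GPHR F/F;Nes and 58.8 units in GPHR F/F, a log2 difference of 3.60 ± 0.21 (12.1-fold higher). Only 4 of the 24112 genes had a larger difference. For 2027 probes of like level (within 0.25 log2 units), the median difference was -0.02 and 5.03% were at least 2-fold higher. The second probe, at chr5:92776616-92776675 and 775 bases away from the first, was designed to a cDNA clone that the array annotation assigns to Cxcl10. It was not well above background on either array, at 5.81 units in GPHR F/F;Nes and 1.46 units in GPHR F/F, so the Cxcl10 difference rested on 1 probe.

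Cxcl1, which attracts neutrophils, was dimmer than Cxcl10 in GPHR F/F;Nes and in GPHR F/F, and differed less. Its probe, at chr5:91322080-91322139 of mm9 on the plus strand, gave 21.1 units in GPHR F/F;Nes and 17.9 units in GPHR F/F, a difference of 0.82 ± 0.25. Probes of the same level had a median of 0.29, and 14.5% of them were at least 2-fold higher. The Cxcl1 difference was -0.21 after scaling to spike-in RNAs, control RNAs of the Agilent system (how much was added is not stated), whose 8 probes were brighter by 0.45 in GPHR F/F;Nes on the unscaled log2 scale.

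The monocyte chemokines Ccl2 and Ccl7 lie next to each other on chromosome 11 and are both read by Ccr2. Ccl2 gave 97.7 units in GPHR F/F;Nes and 29.4 units in GPHR F/F, a difference of 2.32 ± 0.21 (4.98-fold higher). Of all measured genes, 66 had a larger difference, and probes of its level had a median of 0.13. The Ccl2 probe lies at chr11:81850650-81850709 of mm9 on the plus strand. Ccl7 gave 4.43 units in GPHR F/F;Nes and 1.53 units in GPHR F/F, not well above background on either, so it has no fold.

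Ccl3, Ccl4 and Ccl5 attract monocytes and T cells, and all 3 were dim. Their probes lie on chromosome 11 of mm9, at chr11:83461358-83461417 (minus strand) for Ccl3, at chr11:83478052-83478111 and chr11:83478038-83478097 (plus strand) for Ccl4 and at chr11:83339296-83339355 (minus strand) for Ccl5. Ccl3 gave 13.1 units in GPHR F/F;Nes, where it was well above background, and 6.89 units in GPHR F/F, where it was not. After scaling, Ccl3 was at least 2.84-fold higher in GPHR F/F;Nes, against 1.90-fold in unscaled signal. Both Ccl4 probes, which overlap by 46 bases, had signal only in GPHR F/F;Nes. The downstream Ccl4 probe gave 9.09 units in GPHR F/F;Nes and 1.85 units in GPHR F/F (at least 2.17-fold higher), and the upstream one 6.80 units in GPHR F/F;Nes and 3.32 units in GPHR F/F (at least 1.62-fold higher). These bounds set the brighter array against whichever was higher in GPHR F/F, the signal of the dim probe itself or 6.28 units, the lowest called well above background there. Bounds of 2-fold or more were found for 1.73% of all 56603 probes on the GPHR F/F;Nes side and for 0.314% on the GPHR F/F side. Ccl5 gave 11.6 units in GPHR F/F;Nes and 7.47 units in GPHR F/F, a difference of 1.22 ± 0.34. Probes of the Ccl5 level had a median of 0.40, and 13.1% of them were at least 2-fold higher. The Ccl5 difference was 0.74 after quantile normalization and 0.18 with spike-in scaling, below 2-fold in each.

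**Figure D2:**
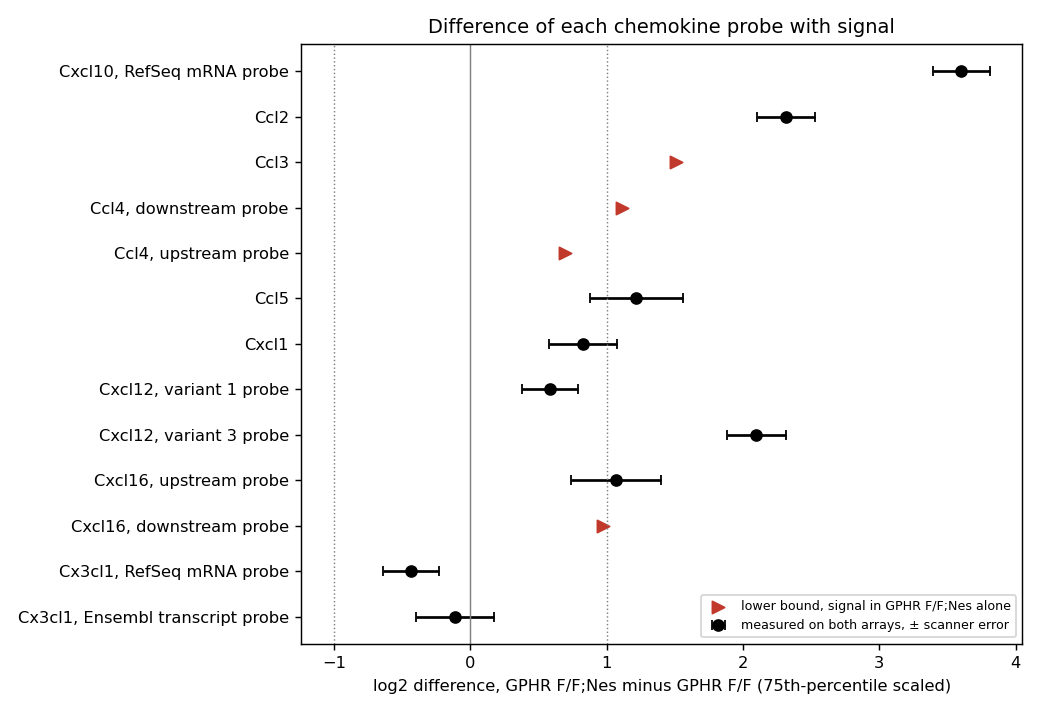
The log2 difference (GPHR F/F;Nes less GPHR F/F, each array set to its 75th percentile) of the 13 chemokine probes with signal on at least 1 array. Points with bars are probes measured on both arrays with their scanner error, arrowheads are lower bounds of probes with signal in GPHR F/F;Nes alone, and dotted lines mark 2-fold; Cxcl10 lies at 3.60 and both Cx3cl1 probes lie below 0.

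Cxcl12, which holds stem cells and migrating neurons in place through Cxcr4 and is scavenged by Ackr3, was measured by a pair of probes that disagreed. Both are designed to different transcript variants and lie 6141 bases apart on chromosome 6 of mm9, at chr6:117125026-117125085 for variant 1 and chr6:117131227-117131286 for variant 3. Their first bases are shown because they separate the 2 readings.
Cxcl12, variant 1 probe: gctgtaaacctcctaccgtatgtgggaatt
Cxcl12, variant 3 probe: aggagaaggcagcttcctatatgcagcgtg
The variant 3 probe gave 80.4 units in GPHR F/F;Nes and 28.1 units in GPHR F/F, a difference of 2.10 ± 0.22 (4.28-fold higher). The variant 1 probe gave 152.8 units in GPHR F/F;Nes and 152.3 units in GPHR F/F, nearly equal unscaled signals, which scaling turned into a difference of 0.59 ± 0.20. The gap between the probes was 1.51 ± 0.30 by the scanner errors. Of 5038 genes with 2 measured probes, 1.87% had a gap as large, and the median gap was 0.22. The gene mean of 1.34 therefore describes neither reading, and with the brightest probe alone it was 0.59. With spike-in scaling the variant 3 probe stood at 1.07 and the variant 1 probe at -0.45, so the direction of the variant 1 probe depended on the scaling. The array annotation lists a second RefSeq accession for the variant 3 probe, so it may not read that variant alone.

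Of the membrane-bound ligands, Cxcl16 was higher and Cx3cl1 slightly lower in GPHR F/F;Nes. The upstream Cxcl16 probe, at chr11:70269481-70269540 of mm9 on the minus strand, gave 11.4 units in GPHR F/F;Nes and 8.14 units in GPHR F/F, a difference of 1.07 ± 0.33. The downstream Cxcl16 probe, at chr11:70267780-70267839, gave 8.22 units in GPHR F/F;Nes and 4.60 units in GPHR F/F, where it was not well above background, and was at least 1.96-fold higher. Probes of the level of the upstream one had a median of 0.39, and its difference was 0.60 after quantile normalization and 0.04 with spike-in scaling.

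Cx3cl1 was the only gene of the 7 with a difference below 0. Its RefSeq mRNA probe, at chr8:97306185-97306244 of mm9 on the plus strand, gave 4806 units in GPHR F/F;Nes and 9729 units in GPHR F/F, a difference of -0.44 ± 0.20 (1.35-fold lower). A second probe, designed to an Ensembl transcript and placed on mm9 with a span of 5033 bases, gave 9.07 units in GPHR F/F;Nes and 14.7 units in GPHR F/F, a difference of -0.11 ± 0.29. The mean of -0.28 kept its sign under all 11 alternatives run, from -1.31 to -0.23. In the same comparison 8 of 8 neuron markers lay below 0, with a median of -0.22, a range of -1.60 to -0.05 and a summed signal of 69454 units in GPHR F/F;Nes and 116521 units in GPHR F/F. The part of neuron content in the Cx3cl1 difference was not tested. In RNA of a whole tissue, fewer cells of a type and less RNA per cell cannot be told apart.

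**Figure D3:**
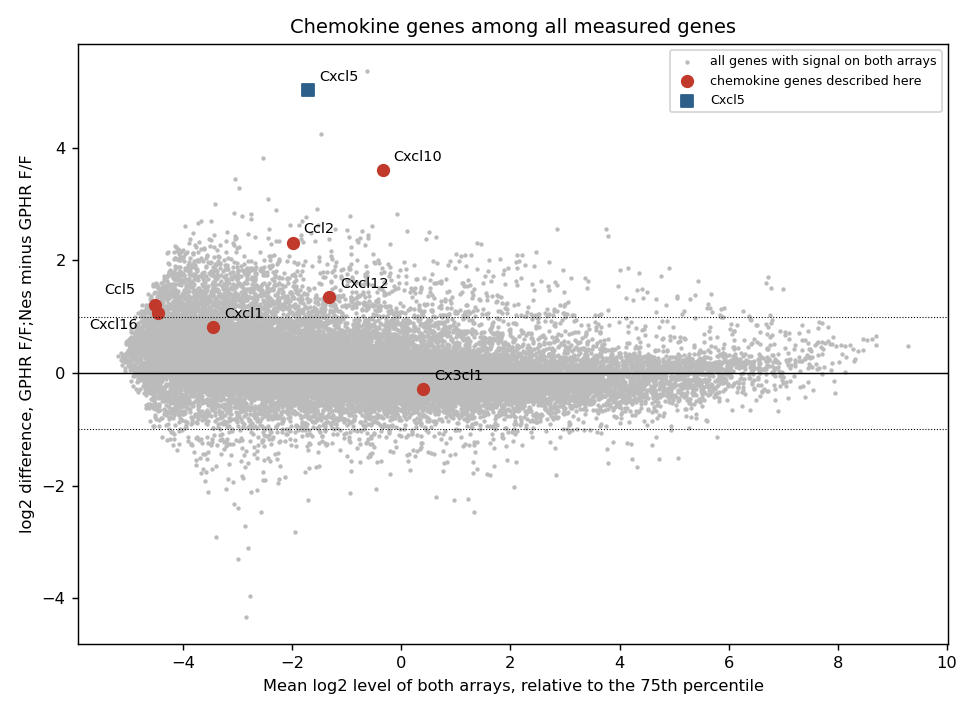
Each point is 1 of 24112 genes with signal on both arrays, by its mean log2 level relative to the 75th percentile (horizontal) and its log2 difference, GPHR F/F;Nes less GPHR F/F (vertical), with dotted lines at 2-fold. Cxcl10 and Cxcl5 lie clear of the genes of their level, whereas Ccl5, Cxcl16 and Cxcl1 lie among dim genes whose median difference was 0.40.

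The other ligands differed in both directions. Of 30 other chemokine ligands, 9 were measured on both arrays, 3 had signal only in GPHR F/F;Nes, 16 had signal on neither and 2 had no probe. Of the 9, 1 was at least 2-fold higher, none 2-fold lower, 5 lay above 0 and 4 below, with a median of 0.46. The sign of that median depended on the processing: it was 0.02 with quantile normalization, 0.04 with loess, -0.01 with normexp background correction, -0.41 with a stricter filter on dim probes and -0.58 with spike-in scaling. That gene, Cxcl5, a ligand of Cxcr2 that attracts neutrophils, gave 301.6 units in GPHR F/F;Nes and 13.97 units in GPHR F/F, a difference of 5.01 ± 0.26, larger than that of Cxcl10. It rested on 1 probe and lay between 2.51 and 5.06 in 11 alternatives. Cxcl2 and Cxcl3, further ligands of Cxcr2, had signal on neither array, nor had Cxcl9, the interferon-induced partner of Cxcl10 at Cxcr3. Cxcl11, the other Cxcr3 ligand, stood at 0.77 ± 0.14 and at -0.26 with spike-in scaling. Its 2 probes were very bright, with a mean of 14790 units in GPHR F/F;Nes and 12953 units in GPHR F/F. Whether they read Cxcl11 alone was not tested.

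Ccl21a, which draws cells into lymphoid tissue, had signal only in GPHR F/F;Nes, with 23.5 units there and 2.88 units in GPHR F/F, at least 5.60-fold higher. Ccl28, a ligand of Ccr3 and Ccr10, stood at 0.93 ± 0.24 and at -0.10 with spike-in scaling. Cxcl14 (-0.62 ± 0.20), Ccl25 (-0.54 ± 0.15) and Ccl17 (-0.41 ± 0.22) lay below 0, also in all 12 alternatives run for each. The bounds of Ccl6 and Ccl20, 1.68-fold and 1.38-fold, were under 2-fold.

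Receptors of the 10 ligands fell into those with signal and those without. Cxcr3, the receptor of Cxcl10, was not well above background, at 3.62 units in GPHR F/F;Nes and 3.84 units in GPHR F/F. Ccr2, the receptor of Ccl2 and Ccl7, stood at 5.17 units in GPHR F/F;Nes and 2.84 units in GPHR F/F, also not well above background. The same held for Ccr1, which binds Ccl3 and Ccl5, and for Cxcr2, the receptor of Cxcl1. By contrast Cx3cr1, the microglial receptor of Cx3cl1, gave 66.2 units in GPHR F/F;Nes and 30.8 units in GPHR F/F, a difference of 1.69 ± 0.22 that is opposite in sign to its ligand. Cxcr6, the receptor of Cxcl16, stood at 1.27 ± 0.23 and Cxcr4 at 1.06 ± 0.21. Ackr3 stood at 0.53 ± 0.20 and at -0.50 with spike-in scaling.

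Of 23 receptors and decoy receptors, 9 were measured on both arrays, of which 6 were at least 2-fold higher, none 2-fold lower and 8 above 0. Among the 6 were also Ccr6 (1.75 ± 0.33) and Ccr7 (1.26 ± 0.37), both dim, with 16.6 units for Ccr6 in GPHR F/F;Nes and 7.37 units in GPHR F/F. Ackr1, a decoy receptor of endothelium and red cells, lay below 0 (-0.53 ± 0.14). A further 1 receptor had signal only in GPHR F/F;Nes and 3 in GPHR F/F alone, with no bound over 2-fold. The count of 6 was 2 with each array centred on its median, 3 after quantile normalization and 0 with spike-in scaling.

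Of 8 enzymes and inhibitors that process chemokines, 6 were measured on both arrays, with a median of 0.39 (-0.64 with spike-in scaling). The sheddases of Cx3cl1 and Cxcl16 differed little, Adam10 by -0.09 ± 0.15 and Adam17 by 0.42 ± 0.13. Dpp4, which trims Cxcl10 and Cxcl12, stood at 0.36 ± 0.25. Timp1, an inhibitor of metalloproteinases, was at least 2-fold higher (1.13 ± 0.21) but fell as low as 0.10 among the alternatives run. With median centring, spike-in scaling or normexp background correction, no measured gene of this list was at least 2-fold higher. Mmp2, a matrix metalloproteinase that cleaves Ccl7 and Cxcl12, had signal only in GPHR F/F;Nes, with 37.4 units there and 6.19 units in GPHR F/F, at least 8.91-fold higher.

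The cytokines that induce these chemokines were mostly without signal, whereas their receptors and signalling genes were measured. Il1a, Il1b, Il6 and Ifng were well above background on neither array. Tnf stood at -0.34 ± 0.21, with 61.4 units in GPHR F/F;Nes and 115.9 units in GPHR F/F. Ifnb1, the type I interferon of most cells, gave 1.54 units in GPHR F/F;Nes, not well above background, and 23.3 units in GPHR F/F, at least 3.07-fold lower in GPHR F/F;Nes. Of the whole list of 32 genes, 26 were measured on both arrays, with 6 at least 2-fold higher, none 2-fold lower, 23 above 0 and a median of 0.49. With spike-in scaling 2 were at least 2-fold higher, 5 lay above 0 and the median was -0.54, and with median centring 3 were at least 2-fold higher and the median was 0.21.

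The 6 were the pattern receptor Tlr2 (2.46 ± 0.29), the interleukin 1 receptor Il1r1 (2.08 ± 0.23), the interferon regulators Irf7 (1.34 ± 0.25) and Irf1 (1.02 ± 0.20), the oncostatin M receptor Osmr (1.18 ± 0.13) and the NF-kappa-B subunit Nfkb2 (1.04 ± 0.16). Irf1 stood at -0.01 after scaling to spike-in RNAs. Over the alternatives run, the others fell as low as 0.55 (Tlr2), 0.74 (Il1r1), 0.26 (Irf7), 0.14 (Osmr) and 0.01 (Nfkb2). Tlr3, a sensor of double-stranded RNA, had signal only in GPHR F/F;Nes, at least 2.49-fold higher. The NF-kappa-B subunit Nfkb1 stood at 0.62 ± 0.12 and Nfkbia, an inhibitor and target of NF-kappa-B, at 0.54 ± 0.20. After scaling to spike-in RNAs both lay below 0, at -0.42 and -0.49.

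Markers of the cells that can make or read these chemokines differed too, and their part in the values above was not tested. All 8 measured microglia markers of 10 lay above 0, 4 of them at least 2-fold, with a median of 1.12 (0.84 with each array centred on its median, 0.09 after scaling to spike-in RNAs). P2ry12, which marks resting microglia, had signal on neither array. Tmem119, another marker of resting microglia, gave 19.6 units in GPHR F/F;Nes and 6.39 units in GPHR F/F, where it was not well above background, and was at least 4.60-fold higher. Unscaled, the summed signal of the microglia list was 1153 units in GPHR F/F;Nes and 1255 units in GPHR F/F. Of meningeal fibroblast markers, 5 of 8 were at least 2-fold higher (median 1.75), with summed signals of 3133 units in GPHR F/F;Nes and 4438 units in GPHR F/F. After scaling, the meningeal sums were 18.07 in GPHR F/F;Nes and 17.10 in GPHR F/F. Of mural cell markers, 5 of 5 measured were at least 2-fold higher (median 1.54, sums of 13351 units in GPHR F/F;Nes and 8265 units in GPHR F/F). Choroid plexus markers had a median of 1.35 over 6 measured, 4 at least 2-fold higher, with sums of 2231 units in GPHR F/F;Nes and 909.9 units in GPHR F/F. Endothelial markers had 3 of 8 measured, 2 at least 2-fold higher, with sums of 1087 units in GPHR F/F;Nes and 719.9 units in GPHR F/F and Cldn5, Cdh5 and Tek on neither array. Pecam1 stood at -0.07, and Emcn and Esam had signal in GPHR F/F alone, with bounds of 1.04-fold and 1.27-fold on that side. With spike-in scaling the count past 2-fold was 1 of 5 for mural cells (median 0.51), 1 of 6 for choroid plexus (median 0.32) and 4 of 8 for meningeal fibroblasts (median 0.72).

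Astrocyte markers had a median of 0.19 over 8, none 2-fold different, with sums of 37995 units in GPHR F/F;Nes and 56276 units in GPHR F/F. Of 8 T cell markers, 4 were measured and all 4 lay below 0 (median -0.54, sums of 521.5 units in GPHR F/F;Nes and 1106 units in GPHR F/F), and Cd3d, Cd3g and Cd8a had signal on neither array. Of 10 monocyte and neutrophil markers, 4 were measured with a median of 0.07, and S100a8, S100a9 and Ly6g had signal on neither. The sums of that list were 129.0 units in GPHR F/F;Nes and 197.8 units in GPHR F/F. Scaled, they were 0.74 in GPHR F/F;Nes and 0.76 in GPHR F/F. The monocyte marker Ly6c2 had signal only in GPHR F/F;Nes, with 8.78 units there and 5.13 units in GPHR F/F, at least 2.09-fold higher. Of 6 border macrophage markers, Ms4a7 (1.18) and F13a1 (1.80) were measured, with list sums of 81.5 units in GPHR F/F;Nes and 47.9 units in GPHR F/F, while Mrc1, Cd163 and Lyve1 had signal on neither. Of 6 erythrocyte markers, Hba-a1 alone was measured, at -0.28, with list sums of 83.8 units in GPHR F/F;Nes and 137.5 units in GPHR F/F.

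The genes with levels most like Cxcl10 over the 2 arrays were 4930557B15Rik, Col1a2 and Gm4098, at distances of 0.66, 0.75 and 0.94 log2 units. Those most like Ccl2 were Slc22a12, A630044M17Rik and Gjb2, at 0.22, 0.23 and 0.23. With 2 arrays, such nearness says only that the levels on each array were close.

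Cxcl10 and Ccl2 were at least 2-fold higher under each of 6 other scalings or background corrections, from 2.57 to 3.65 and from 1.15 to 2.36. The further alternatives were the dim-probe filters, the brightest probe, the deposited value table and kept outlier spots. For a gene with 1 probe, such as Ccl2, these could hardly change the value. The 2-fold differences of Cxcl12, Ccl5 and Cxcl16 depended on the scaling, and so did the count over all genes. Genes higher in GPHR F/F;Nes made up 85.3% of those past 2-fold with the 75th percentile. The share was 72.4% with loess, 68.4% with quantile normalization, 56.9% with median centring and 1.24% with spike-in scaling. That last setting moved the median of all genes by -1.03, and the median centring moved it by -0.28. Relative to the median of all genes, the median of the 7 chemokine genes was higher by 1.14 under the 75th percentile, the median and the spike-in scaling alike, which differ by a constant. It was higher by 0.77 after quantile normalization, by 0.14 with normexp background correction and by 1.82 with the stricter filter on dim probes, which left 4 of the 7 genes.

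**Figure D4:**
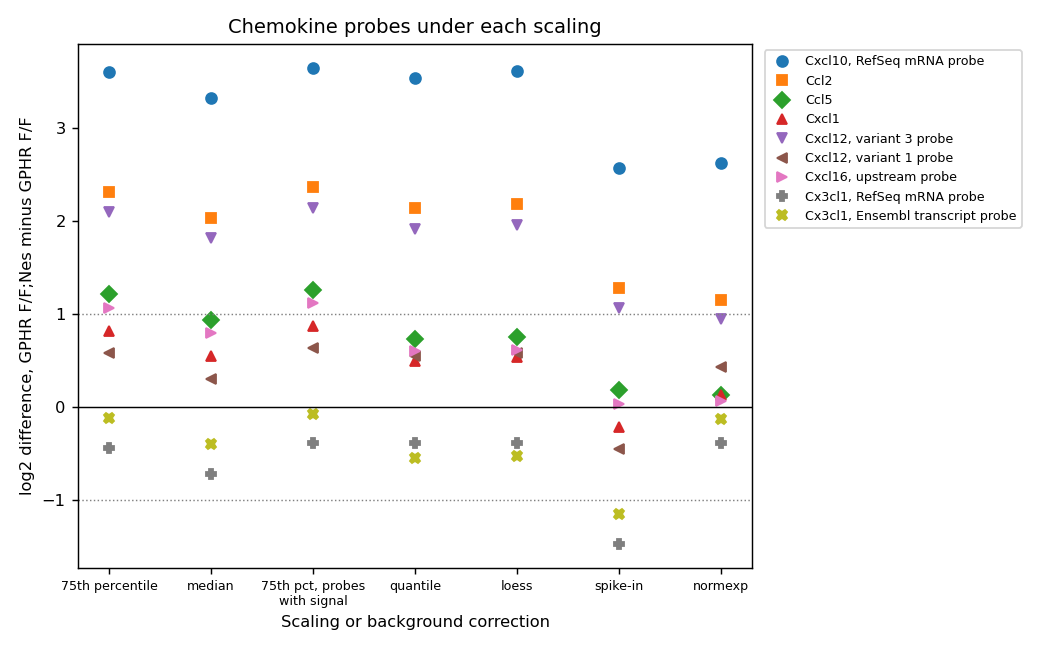
The log2 difference (GPHR F/F;Nes less GPHR F/F) of the 9 chemokine probes measured on both arrays under the 75th-percentile scaling and 6 other scalings or background corrections, with dotted lines at 2-fold. Cxcl10 and Ccl2 stay above the upper line in all 7 settings, the Cxcl12 variant 3 probe stays above it in 6, and both Cx3cl1 probes stay below 0.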

How the data were processed

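RNA extraction used TRIzol and the label was Cy3, per the labels' protocols. Scans were read by Agilent Feature Extraction 11.5.1.1, per the submitters' processing notes. The deposited spot intensity was background-subtracted and detrended on a linear scale, per the file headers, and spots at background hold a surrogate value. Deposited flags (other values, 0 or 1) mark outliers and spots well above background. The deposited value table is on the log2 scale and matched log2 of the processed signal after adding a constant to each array (-7.43 in GPHR F/F;Nes and -8.01 in GPHR F/F) within 0.001 for 99.9% of probes. Its column medians were -2.92 in GPHR F/F;Nes and -3.19 in GPHR F/F, and what set the constants was not given in the sources used here.

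The arrays shared 1 slide and 1 scan, with 62976 spots each, no saturated spot, and probes well above background made up 69.2% in GPHR F/F;Nes and 67.0% in GPHR F/F. Non-control spots with an outlier flag were left out (51 on each array). Spots of 1 probe were averaged as log2 values, and a gene's value is the mean over its probes well above background on both arrays. Symbols follow RefSeq (GRCm38.p6) where the accession matched (32993 of 56603 probes, 13 of the 15 chemokine probes), otherwise the array. Probes are placed on mm9, per the file headers; whether they lie in exons or UTRs was not analysed here.

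Named genes were all 10 ligands, their receptors, Gpr89, up to 6 genes per pathway list with the largest differences, bounds of at least 2-fold, and the 3 genes nearest in level to Cxcl10 and to Ccl2. A few further genes (cytokines, ligands and markers without signal, Nfkb1, Nfkbia, Tnf, Ccl6 and Ccl20) were added for their roles after their values were seen. The members, lists and rules were chosen with earlier results of these data known. Some genes of these lists, counted in the totals, are not reported here by name. The calculation was tested on simulated data. Python 3.11.15 (numpy 2.4.6, pandas 2.3.3) was used throughout, with limma 3.58.1 under R 4.3.3 for quantile, loess (span 0.3) and normexp (offset 50) steps.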

Additional observations from a re-analysis of the deposited data

How the results depend on the processing

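Alternatives were run for the chemokine count, their median, the counts over all genes, other ligands and receptors, and each gene. The count of 5 chemokine genes at least 2-fold higher was 3 with each array centred on its median, after quantile normalization, after loess and with a stricter filter on dim probes, 2 after scaling to spike-in RNAs, after normexp and at 3-fold, and 8 with no filter. Their median of 1.22 was 0.94, 0.74 and 0.75 under median centring, quantile normalization and loess, 0.18 under spike-in scaling, 0.13 under normexp and 1.83 with the stricter filter, which left 4 of the 7 genes. The 1912 genes at least 2-fold higher became 1081 under median centring, 1240 under quantile normalization, 139 under spike-in scaling, 333 under normexp, 884 with the stricter filter, 5549 with none, 4370 at 1.5-fold and 549 at 3-fold. The 1 other ligand became 6 with no filter, 0 with the stricter filter and 3 at 1.5-fold. The 6 receptors became 2 under median centring, 3 under quantile normalization and loess, 0 under spike-in scaling and normexp, 2 with the stricter filter and 2 at 3-fold. The stricter filters and thresholds make fewer calls by construction, and the cause of the other moves was not tested. The deposited value table, kept outlier spots and, chosen after seeing the data, an analysis without the X and Y probes moved no chemokine count. Among the values of the 7 measured chemokine genes, 46 moved by less than the scanner error and 28 by more, and none of the 5 genes past 2-fold changed sign. Normexp adds an offset that shrinks differences of dim probes. The dim genes Ccl3, Ccl4, Ccl5, Ccl7 and Cxcl16 had signals of at most 13.1 units, against 5.06 units in GPHR F/F;Nes and 6.28 units in GPHR F/F for the lowest signal well above background, and 1 array per genotype limits the precision of all values. No paired analysis was possible because each genotype has 1 array.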
